A study of Macaca mulatta with 12 samples.

Results

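The parvocellular layers of the lateral geniculate nucleus were compared between layers driven by the deprived eye and layers driven by the other eye in monocularly deprived rhesus macaques (Macaca mulatta). The arrays were chosen by title: every array of layer 3, 4, 5 or 6 was used, which gave 8 of the 12 arrays of the series, and the other 4 came from the magnocellular layers 1 and 2. Total RNA of each layer on each side of the brain had been hybridised to 1 human expression array. The 4 deprived samples were layers 3 and 5 of the hemisphere labelled ipsilateral and layers 4 and 6 of the one labelled contralateral. The 4 non-deprived samples were layers 3 and 5 of the contralateral and layers 4 and 6 of the ipsilateral hemisphere. All 8 samples came from monocularly deprived animals, so the non-deprived layers are an internal control and not tissue of an untreated animal. The labels state neither how nor for how long the eye was deprived, and give no age, no count of animals and no link between samples and animals. The error of each value is thus one between layers and hemispheres, may be partly technical, and where samples came from 1 animal the p-values overstate what is known about animals.

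The lateral geniculate nucleus of the thalamus passes retinal signals on to the primary visual cortex. Its parvocellular layers hold small relay neurons that carry fine spatial detail and red-green colour signals from midget ganglion cells of the retina, beside local GABA-producing interneurons and glia. Each layer is innervated by a single eye, layers 3 and 5 by the eye of the same side and layers 4 and 6 by the opposite eye, so depriving 1 eye lowers the drive to some layers and leaves their neighbours driven. Loss of input in this nucleus is known for shrinkage of relay cells, for changes of metabolic enzymes and for changes of activity-dependent genes.

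The deposited values were scaled intensities on a linear scale, 1 per probe set, and 11105 probe sets were tested. A log2 change is the deprived minus the non-deprived mean of log2 intensity with hemisphere as a covariate, given with its standard error. An adjusted p is from limma with Benjamini-Hochberg adjustment over all 11105 probe sets, two-sided, and passes below 0.05. A level is a scaled intensity, given as mean ± SD over the 4 arrays of a group. Markers of the cell class on the labels were compared over the 12 arrays. CRH, a neuropeptide reported as a marker of magnocellular relay cells, was 1.38 lower on the log2 scale in parvocellular than in magnocellular layers (log2 difference -1.38 ± 0.20, limma adjusted p = 0.00253). NEFM, the medium neurofilament subunit of large axons, differed by -0.83 ± 0.12 (adjusted p = 0.00295). Of the parvocellular markers, KCNA4, a voltage-gated potassium channel, differed by 0.37 ± 0.24 (adjusted p = 0.504), and FOXP2 was not among the probe sets tested. TCF7L2, a transcription factor of thalamic neurons, differed by 0.05 ± 0.11 in its brightest probe set (adjusted p = 0.884). In other probe sets TCF7L2 differed by 1.00 ± 0.27 and 0.95 ± 0.22 (adjusted p = 0.118 and 0.0639), and by 0.11, 0.06 and -0.07. CRH and NEFM were thus lower in parvocellular layers, while the measured parvocellular markers did not pass. The 5 measured magnocellular markers had a median difference of -0.78. The marker lists were chosen with results of these data known, so these values are no independent check of the labels.

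Array measures were of the same order in both groups. The median intensity of an array lay between 456.7 and 645.3. For the GAPDH control, the signal of the 3' probe set over that of the 5' one, a measure of RNA degradation, was 11.0 on the deprived layer 5 and 2.21 to 5.65 on the others. For the ACTB control the same ratio was higher on every array, from 17.0 on the non-deprived layer 3 to 43.9 on the non-deprived layer 4. Its mean was 21.9 ± 3.57 in deprived and 29.4 ± 11.4 in non-deprived layers. The non-deprived layer 4 had the lowest mean correlation with the other 7 arrays, 0.908, and the deprived layer 5 the next lowest, 0.909, against 0.931 to 0.938. None of 4 array measures passed an exact permutation test between the groups (two-sided p from 0.343 to 0.743, adjusted p from 0.686 to 0.743), where the smallest p that 4 against 4 can give is 0.0286. Precision is limited by the small number of arrays.

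Transcripts of 4 genes rose in deprived parvocellular layers, and no probe set fell past the threshold. They were HRK, BRINP3, PTGDS and MARCKSL1, each higher on every deprived array than on any non-deprived array. Over all probe sets 0.036% passed as higher (4 of 11105) and 0% as lower (0 of 11105). An unadjusted p under 0.05 was reached by 774 probe sets, 463 higher and 311 lower. In bulk RNA of a layer, a change in the number of cells of a type and a change in RNA per cell cannot be told apart.

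HRK, a BH3-only member of the BCL2 family that promotes apoptosis by binding the anti-apoptotic members, had the largest rise of the 4. Of its 3 probe sets on the array, 1 was bright enough to be tested. On the deprived arrays its level was 4551 in layer 3, 4920 in layer 4, 4732 in layer 5 and 4822 in layer 6. On the non-deprived arrays it was 1018, 1671, 1441 and 697.6 in the same order. The 4 deprived values lay close together, at 4756 ± 157.1, while the non-deprived values spread more, at 1207 ± 434.1. The rise was 4.16-fold (log2 change 2.06 ± 0.25, limma adjusted p = 0.0119, n = 4 each), and the difference within a layer was smallest in layer 4 (1.56) and largest in layer 6 (2.79). HRK was also 1.60 ± 0.26 higher (log2) in parvocellular than in magnocellular layers (adjusted p = 0.00895).

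BRINP3, a secreted neural protein induced by bone morphogenetic protein and retinoic acid, was at 1557, 2376, 2925 and 3370 in deprived layers 3 to 6. It was at 749.9, 818.7, 924.8 and 822.3 in the non-deprived layers. The non-deprived values were almost level, and the deprived layer 3 was the lowest of the deprived values yet above all of them. The rise was 2.97-fold (log2 change 1.57 ± 0.24, limma adjusted p = 0.0437), from 828.9 ± 72.1 to 2557 ± 780.7.

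PTGDS, the prostaglandin D2 synthase that in brain is made mainly by oligodendrocytes and the meninges, was at 69145, 36268, 48248 and 50201 in deprived layers 3 to 6. It was at 14895, 21304, 16800 and 25578 in the non-deprived layers. The highest value was that of the deprived layer 3, and the lowest deprived value, in layer 4, was still above the highest non-deprived one, in layer 6. The rise was 2.58-fold (log2 change 1.37 ± 0.17, limma adjusted p = 0.0119), from 19644 ± 4782 to 50966 ± 13595. Both other probe sets of PTGDS were also higher on every deprived array, with log2 changes of 1.14 (adjusted p = 0.133) and 0.71 (adjusted p = 0.469), and neither passed.

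MARCKSL1, a protein kinase C substrate that binds actin and calmodulin at the plasma membrane, was at 16522, 11666, 13700 and 9096 in deprived layers 3 to 6. It was at 4171, 7030, 4090 and 5293 in the non-deprived layers. Layers 3 and 5 had the wider gap (differences of 1.99 and 1.74 on the log2 scale), and layers 4 and 6 the narrower one (0.73 and 0.78). The rise was 2.48-fold (log2 change 1.31 ± 0.18, limma adjusted p = 0.0194), from 5146 ± 1371 to 12746 ± 3144.

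All 4 genes had a positive change under every alternative fitted, but few arrays carry each call. Without the 2 arrays of lowest correlation, the deprived layer 5 and the non-deprived layer 4, HRK and PTGDS passed. The count was 0 without the non-deprived layer 3 and 0 without the deprived layer 6. It was 1 without the deprived layer 3 (BRINP3), without the deprived layer 5 (PTGDS) or without the non-deprived layer 5 (HRK), and 2 without the non-deprived layer 4 (HRK and MARCKSL1).

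**Figure D1:**
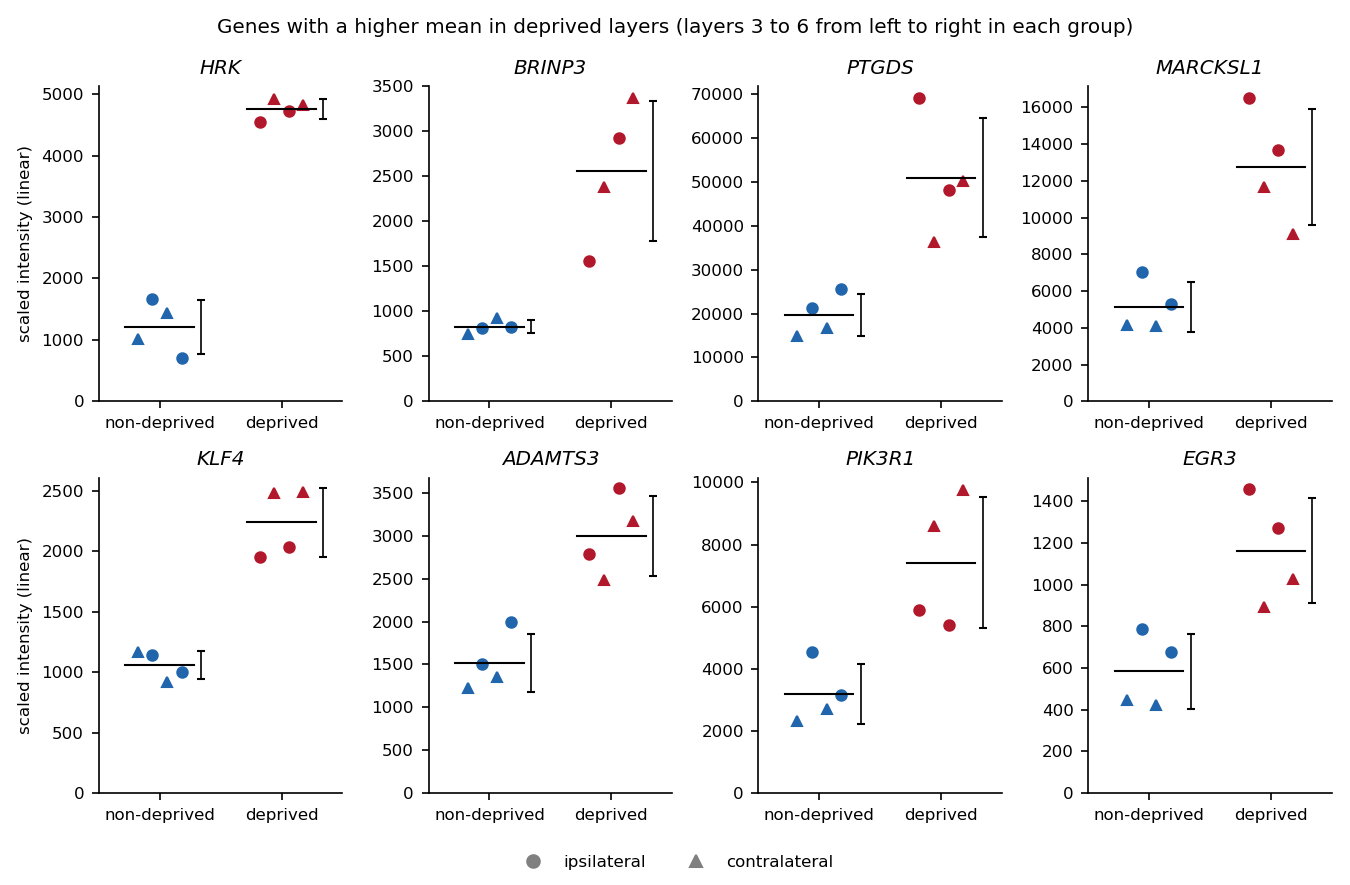
Scaled intensity (linear, starting at 0) of 8 genes on the 4 non-deprived and 4 deprived parvocellular arrays, with layers 3 to 6 from left to right in each group, circles for ipsilateral and triangles for contralateral arrays, a line at the mean and a bar for 1 SD. The deprived and non-deprived arrays do not overlap in any of the 8 panels, and of these genes HRK, BRINP3, PTGDS and MARCKSL1 passed the test.

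Several regulators of transcription and growth signalling came next by p on the higher side without passing. KLF4, a zinc-finger transcription factor, was at 1953, 2483, 2034 and 2491 in deprived layers 3 to 6 and at 1168, 1143, 923 and 1003 in non-deprived ones. The groups did not overlap, and the log2 change was 1.08 ± 0.19 (limma adjusted p = 0.133). EGR3, an immediate early transcription factor, was at 1460, 892.5, 1273 and 1030 against 445.6, 788.4, 424.8 and 679.7, without overlap, with a change of 1.02 ± 0.22 (adjusted p = 0.340). The gap of EGR3 was wide in layers 3 and 5 and narrow in layer 4. ADAMTS3, a metalloprotease that cleaves procollagen and reelin, was at 2788, 2483, 3556 and 3173 against 1228, 1504, 1353 and 1997, with a change of 0.99 ± 0.20 (adjusted p = 0.278). PIK3R1, the regulatory subunit of phosphoinositide 3-kinase, was at 5885, 8604, 5425 and 9769 against 2331, 4547, 2714 and 3165. Its highest values were those of both deprived contralateral layers, and its change was 1.22 ± 0.26 (adjusted p = 0.331). Its other probe set had a change of 0.57 (adjusted p = 0.687). IGFBP5, which binds insulin-like growth factors, had a change of 1.11 ± 0.25 (adjusted p = 0.364), with levels of 1512 ± 466.4 and 709.7 ± 256.6. PHIP, a pleckstrin homology domain interacting protein, had a change of 0.93 ± 0.20, CDC40, a splicing factor, of 1.03 ± 0.23, and ZNF536, a zinc-finger protein, of 0.80 ± 0.18, and the other probe sets of PHIP (0.06) and CDC40 (-0.11) were near 0.

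On the lower side STAR had the smallest p. STAR carries cholesterol to the inner mitochondrial membrane, the first step of steroid synthesis. It was at 2835, 3501, 2310 and 2915 in deprived layers 3 to 6 and at 7638, 5787, 5674 and 7351 in the non-deprived layers. The groups were well apart in all 4 layers, at 2890 ± 487.8 and 6613 ± 1026, and the log2 change was -1.20 ± 0.20 (limma adjusted p = 0.0743), which did not pass. It passed with a floor at the 40th percentile and with a stricter filter on level.

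PCGF1, a Polycomb group RING protein, was at 785.5, 1215, 419.3 and 297 in deprived layers and at 1964, 2218, 2053 and 2122 in non-deprived ones. The non-deprived values were nearly equal and the deprived ones spread from 297 to 1215. Its change was -1.83 ± 0.36 (limma adjusted p = 0.268), and -0.49 (adjusted p = 0.677) in its other probe set. CRH was at 14120, 13159, 6623 and 10714 in deprived layers and at 21066, 19329, 31283 and 26560 in non-deprived layers. Layers 5 and 6 had a wider gap than layers 3 and 4, and the change was -1.17 ± 0.24 (adjusted p = 0.278), with -0.83 (adjusted p = 0.660) in its other probe set. GDF7, a ligand of the bone morphogenetic protein family, was at 401.5, 391.5, 284.7 and 368.5 against 840.3, 831.8, 843.6 and 789.7. Both groups were tight, and its change was -1.20 ± 0.28 (adjusted p = 0.364).

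The other genes of smallest p on the lower side were of several kinds. NEFM was at 40138 ± 5098 in deprived and 59904 ± 5809 in non-deprived layers (log2 change -0.58 ± 0.14, limma adjusted p = 0.381). FBXW7, the substrate-binding subunit of a ubiquitin ligase, differed by -0.92 ± 0.20, and TNNI3, named for cardiac troponin I, by -0.97 ± 0.21. Of enzymes and carriers of lipids, MGST3, a microsomal glutathione transferase, differed by -0.65 ± 0.15, FAR2, a fatty acyl-CoA reductase, by -0.90 ± 0.21, and CERT1, a ceramide carrier, by -0.67 ± 0.16. ATP13A2, a lysosomal transport ATPase, differed by -1.33 ± 0.33, and CNNM1, a membrane protein linked to magnesium transport, by -0.74 ± 0.18. The adjusted p of these genes lay between 0.331 and 0.424. NQO2, a quinone reductase, was at 5523, 5010, 3903 and 4514 against 6980, 15906, 8557 and 7408, with a change of -0.96 ± 0.25 (adjusted p = 0.443). The non-deprived layer 4 stood above the other non-deprived values of NQO2.

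**Figure D2:**
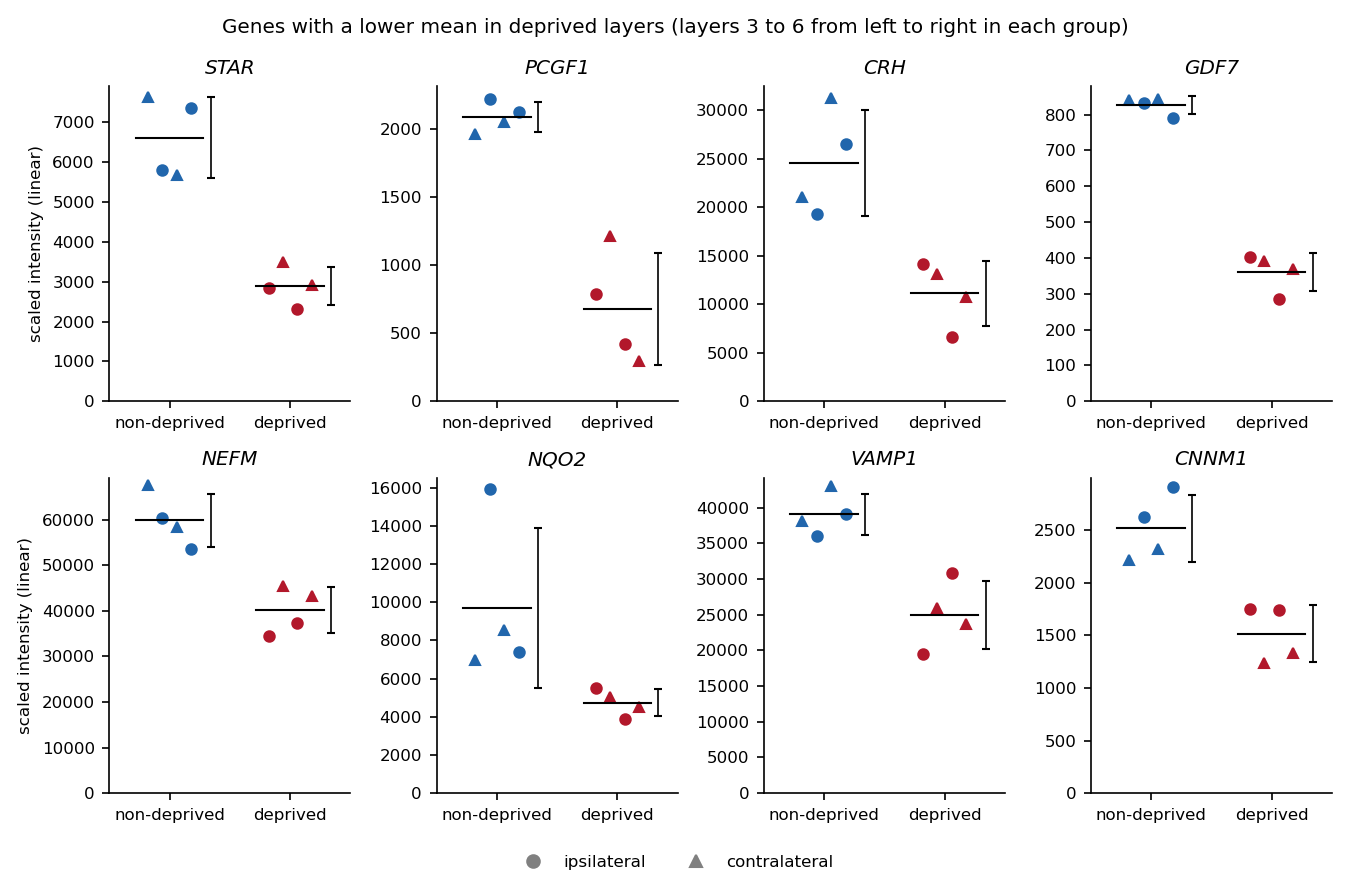
Scaled intensity (linear, starting at 0) of 8 genes on the 4 non-deprived and 4 deprived parvocellular arrays, drawn in the same way (layers 3 to 6 from left to right, circles ipsilateral, triangles contralateral, line at the mean, bar for 1 SD). The deprived arrays sit below the non-deprived arrays in all 8 panels, and none of these genes passed the test, STAR being nearest at an adjusted p of 0.0743.

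Lists of related genes were described next, with 1 probe set per gene, which left 7285 genes. Over all of them the median log2 change was 0.0445 and 43% were negative. As a background for counts of members, 4.38% of the genes were higher and 2.98% lower at an unadjusted p under 0.05. In 2.16% every deprived array was above every non-deprived array, and in 1.32% every deprived array was below. Centring each array on its median moved the median of all genes from 0.0445 to -0.0942. With that centring 21% of the genes at an unadjusted p under 0.05 were on the higher side, against 59.5% without it and 50.4% after quantile normalization. The list medians are therefore to be read against the median of all genes under the same scaling.

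Genes of the respiratory chain, whose enzymes make ATP in mitochondria, lay mostly on the lower side. Of 67 measured nuclear-encoded members 63 were negative, with a median of -0.26 against 0.0445 over all genes. Under median centring 66 of 67 were negative, with a median of -0.40 against -0.0942, and after quantile normalization 61 were, with -0.20. At an unadjusted p under 0.05, 13 members (19.4%) were lower and 0 higher, against 2.98% and 4.38% over all genes, and 5 members (7.46%) had no overlap between the groups. No member passed the adjusted test. Without the 2 arrays of lowest correlation 60 of 67 were negative. At an unadjusted p under 0.05, 22 (32.8%) were then lower, against 4.23% of all genes in that fit.

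By complex, 26 of 27 genes of complex I, which takes electrons from NADH, were negative (median -0.31). NDUFA10, an accessory subunit, had levels of 4224, 3952, 2474 and 3058 in deprived layers 3 to 6 and of 6910, 4305, 5540 and 4465 in non-deprived ones. The groups did not overlap but came close in layer 4, and its change was -0.64 ± 0.22 (limma adjusted p = 0.641). NDUFV2, a core subunit, went from 12262 ± 785.7 to 8816 ± 2745 (log2 change -0.53 ± 0.21), also without overlap. All 11 measured genes of complexes II and III were negative (median -0.26), among them UQCRB (-0.63 ± 0.22), UQCRC1 (-0.43 ± 0.15) and SDHA (-0.48 ± 0.20), the catalytic subunit of succinate dehydrogenase. Of 14 genes of complex IV, cytochrome c oxidase, 12 were negative (median -0.18). Its assembly factor COX11 had a change of -0.69 ± 0.27, COX7C of -0.28 ± 0.24 and COX6C of 0.06 ± 0.24, the last turning negative under median centring. Of 15 genes of ATP synthase 14 were negative (median -0.27). ATP5MC1, of the membrane ring, was at 3730, 5249, 5074 and 4426 against 7572, 5839, 7290 and 5486, without overlap (-0.50 ± 0.18, adjusted p = 0.673).

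Genes of glycolysis and pyruvate entry followed the same side. Of 19 measured, 15 were negative (median -0.22; -0.36 under median centring), with 3 lower (15.8%) and 0 higher at an unadjusted p under 0.05. PDHA1, of the pyruvate dehydrogenase complex, went from 17960 ± 1975 to 12803 ± 1738 without overlap (log2 change -0.49 ± 0.17, limma adjusted p = 0.641). ALDOA, the muscle-type aldolase also found in brain, was at 27927, 48956, 44603 and 50640 in deprived layers against 74861, 51391, 66594 and 48144, so that layers 3 and 5 differed most and layer 6 was slightly the other way. Its change was -0.50 ± 0.16 (adjusted p = 0.641). PFKP, a phosphofructokinase, had a change of -0.55 ± 0.23, and ENO1, an enolase, of 0.21 ± 0.19.

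Genes of protein turnover had similar values. Of 26 proteasome subunits, which form the protease that degrades ubiquitinated proteins, 21 were negative (median -0.24), with 5 lower (19.2%) and 0 higher at an unadjusted p under 0.05. PSMA7, a core subunit, was at 6333, 11018, 5240 and 11778 in deprived layers against 14916, 8338, 16183 and 13283. It was far lower in layers 3 and 5 and higher in layer 4, and the change was -0.66 ± 0.19 (limma adjusted p = 0.621). PSMB3 had a change of -0.64 ± 0.19 and PSMD1 of -0.53 ± 0.20. Of 24 heat shock proteins and chaperones 17 were negative (median -0.22), with 1 lower at an unadjusted p under 0.05, BAG3 (-0.49 ± 0.19), a co-chaperone of HSP70. Without the 2 arrays of lowest correlation 6 of the 24 (25%) were lower at that threshold, against 4.23% of all genes.

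In all of these lists the difference lay in layers 3 and 5. The median difference of the 67 respiratory chain genes was -0.55 in layer 3 and -0.44 in layer 5, and -0.02 in layer 4 and -0.11 in layer 6. For the proteasome it was -0.54 and -0.56 in layers 3 and 5, and 0.28 and -0.07 in layers 4 and 6. For glycolysis it was -0.45 and -0.53, and then 0.04 and -0.004. In layers 3 and 5 the deprived sample is ipsilateral and the non-deprived one contralateral, and in layers 4 and 6 it is the other way round, so a difference between hemispheres adds to the first pair and subtracts from the second. Compared within a hemisphere, where layers 3 and 5 stand against layers 4 and 6, the respiratory chain median was -0.21 ipsilaterally and -0.28 contralaterally. That of the proteasome was -0.33 and -0.21, and that of glycolysis -0.18 and -0.22.

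**Figure D3:**
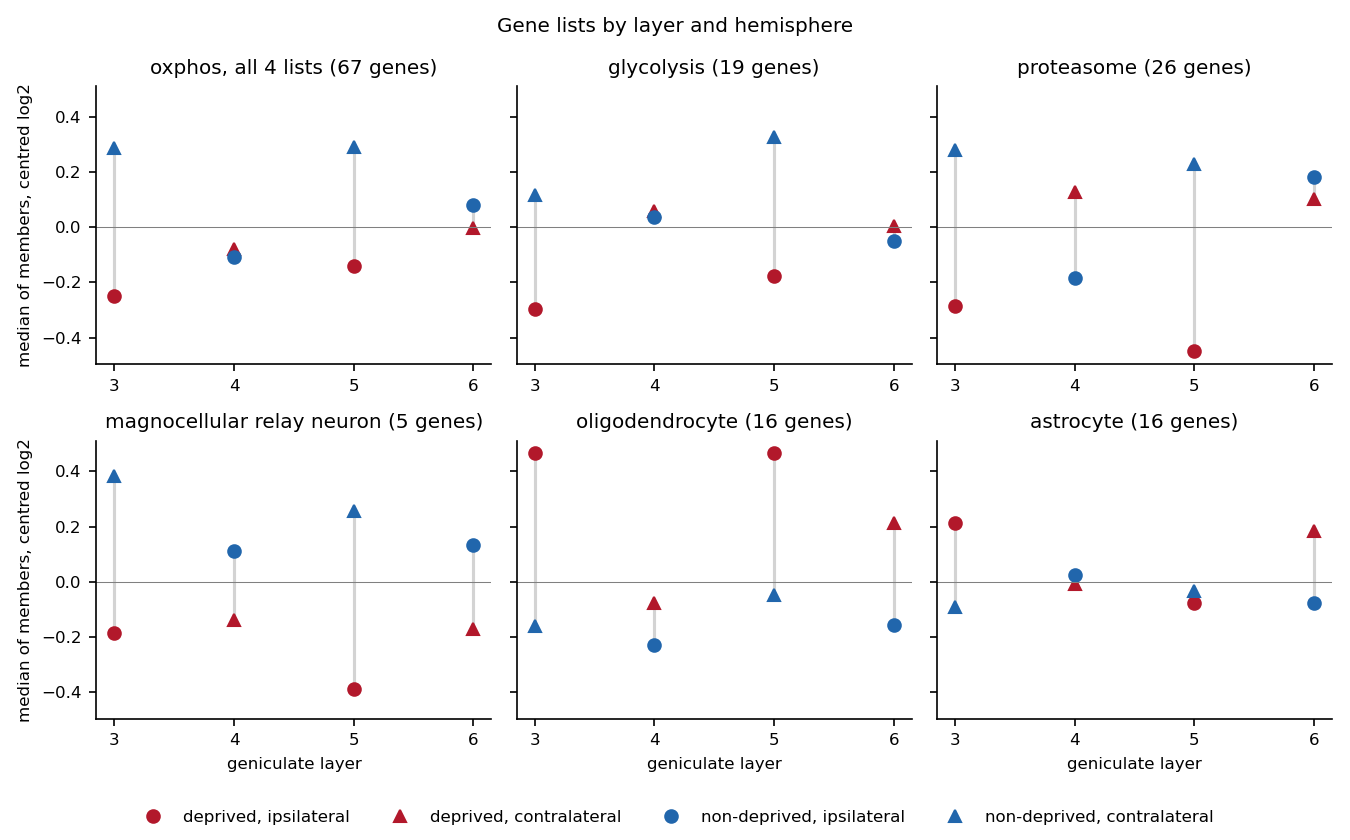
For 6 gene lists, the median over members of log2 intensity, each member centred on its own mean over the 8 arrays (vertical axis), by layer (horizontal axis), for deprived and non-deprived samples and both hemispheres. In layers 3 and 5 the deprived ipsilateral samples lie below the non-deprived contralateral ones for the respiratory chain (oxphos), glycolysis and proteasome, while in layers 4 and 6 the gap is small or turned; the magnocellular markers are lower and the oligodendrocyte markers higher in the deprived sample of every layer.

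Structural genes of axons were mixed. Of 27 cytoskeletal genes 19 were negative (median -0.16; -0.30 under median centring), with 5 lower (18.5%) and 2 higher (7.41%) at an unadjusted p under 0.05. The 5 lower were the neurofilament subunits NEFM and NEFH, the neuronal intermediate filament INA, and MAP1A and STMN2, which bind microtubules or tubulin. MAP1A went from 26925 ± 5222 to 18822 ± 2861 without overlap (log2 change -0.51 ± 0.17, limma adjusted p = 0.641). The 2 higher were DPYSL3 and STMN1. DPYSL3, a collapsin response mediator protein, went from 1512 ± 271.7 to 2630 ± 322.9 without overlap (0.81 ± 0.20, adjusted p = 0.408). STMN1, which destabilises microtubules, was at 2616, 1386, 3639 and 1332 against 962.2, 1589, 681.9 and 1695, so that it was higher in layers 3 and 5 and lower in layers 4 and 6 (0.83 ± 0.20, adjusted p = 0.408).

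Of 6 genes listed as magnocellular markers, 5 were measured, and all 5 had a negative change in parvocellular layers. Their median was -0.43, and -0.57 under median centring. At an unadjusted p under 0.05, 3 (60%) were lower, CRH, NEFM and NEFH, against 2.98% of all genes. The same 3 had no overlap, against 1.32% of all genes. NEFH, the heavy neurofilament subunit, had a change of -0.40 ± 0.14 in its brightest probe set (limma adjusted p = 0.641). In another probe set it was at 17770, 32292, 13627 and 17424 in deprived layers against 35599, 22006, 43720 and 52132 (-0.93 ± 0.27, adjusted p = 0.588), where layer 4 went the other way. The summed level of the 5 genes was 103174 to 119870 in deprived and 149675 to 173757 in non-deprived layers, without overlap. The list was chosen with results of these data known, and the part of magnocellular tissue in these samples was not tested. In the magnocellular layers themselves the same 5 genes had a median deprivation change of -0.42.

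Synaptic genes split both ways. Of 25 genes of vesicles and release 13 were negative (median -0.03), with 2 lower (8%) and 2 higher (8%) at an unadjusted p under 0.05. Over all genes these shares were 2.98% and 4.38%. VAMP1, a vesicle SNARE of fast-firing neurons, was at 19448, 25956, 30902 and 23636 in deprived layers against 38094, 36075, 42986 and 39127. The groups did not overlap, and its change was -0.66 ± 0.17 (limma adjusted p = 0.435), with -0.51 (adjusted p = 0.687) in its other probe set. NSF, the ATPase that takes SNARE complexes apart, had a change of -0.47 ± 0.15. ATP6V0C, of the proton pump that fills vesicles, was at 30828, 31931, 32286 and 33564 against 18716, 18092, 22245 and 28934, without overlap (0.57 ± 0.17, adjusted p = 0.639). STX1A, a plasma membrane SNARE, had a change of 0.51 ± 0.20. SLC17A6, the vesicular glutamate transporter of relay cells, had a change of -0.26 ± 0.17 (adjusted p = 0.789).

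Of 21 measured activity-regulated genes, which neurons switch on with firing, 14 were positive (median 0.13 against 0.0445 over all genes). After quantile normalization 12 were (median 0.12), and under median centring 10 (median -0.01 against -0.0942 over all genes), the 1 of 22 alternatives in which the median turned negative. At an unadjusted p under 0.05, 2 (9.52%) were higher, KLF4 and EGR3, against 4.38% of all genes. EGR1, the most studied of these immediate early genes, was at 4202, 3410, 3388 and 3697 against 2298, 3210, 3846 and 2353. The groups overlapped, and its change was 0.36 ± 0.21 (limma adjusted p = 0.778). CREM, a transcription factor of the CREB pathway, had a change of -0.38 ± 0.22. In its other probe sets it was 0.69, without overlap between the groups, and 0.37, with overlap.

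Cell death and growth factor genes other than those named above did not move together. Of 14 genes of the BCL2 family and of caspases 9 were positive (median 0.27), and HRK was the one past the adjusted threshold. BNIP3, a mitochondrial member, had a change of -0.50 ± 0.24. CASP2 was higher without overlap (0.41 ± 0.22). Of 19 genes of insulin-like growth factor and phosphoinositide 3-kinase signalling 11 were positive (median 0.10), and 9 under median centring (median -0.04). At an unadjusted p under 0.05, 3 (15.8%) were higher (PIK3R1, IGFBP5 and IGF1) and 1 (5.26%) lower (PIK3CD). Over all genes these shares were 4.38% and 2.98%. IGF1 itself had a change of 0.61 ± 0.28 and PIK3CD of -0.53 ± 0.23 (limma adjusted p = 0.716 and 0.703).

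Glial markers lay mostly on the higher side, those of oligodendrocytes most, with differences that varied between layers and hemispheres. Of 22 listed oligodendrocyte genes 16 were measured, and all 16 were positive as deposited, 15 under median centring. The median was 0.46 (0.32 under median centring), and 7 (43.8%) were higher at an unadjusted p under 0.05 against 4.38% of all genes. Under median centring 2 (12.5%) were, against 1.35% of all genes. Without the 2 arrays of lowest correlation 4 (25%) were, against 5.04%. CNP, a myelin enzyme, went from 12186 ± 3350 to 23019 ± 8382 (log2 change 0.88 ± 0.24, limma adjusted p = 0.513). FA2H, which makes hydroxylated myelin lipids, was at 2203, 1182, 1742 and 1322 in deprived layers against 614.9, 1471, 695 and 1064, so that layer 4 went the other way (0.79 ± 0.21, adjusted p = 0.469). MBP, the myelin basic protein, had a change of 0.14 ± 0.16 in its brightest probe set, the one used for the list, and of 0.30 ± 0.26 in that of smallest p. EVI2A was the 1 member without overlap (0.63 ± 0.24). The median difference of the oligodendrocyte genes was 0.65, 0.07, 0.52 and 0.37 in layers 3 to 6. Compared within a hemisphere it was 0.74 ipsilaterally and 0.21 contralaterally. The summed level of the 16 genes was 157069 to 243816 in deprived and 130603 to 167156 in non-deprived layers. PTGDS is also made by oligodendrocytes, and the part of the oligodendrocyte share in its rise was not tested.

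Of 16 measured astrocyte genes 12 were positive (median 0.15), and 8 under median centring, where 2647 of all 7285 genes were positive. Their median difference was 0.30, -0.03, -0.22 and 0.18 in layers 3 to 6. Within a hemisphere it was 0.26 ipsilaterally and 0.15 contralaterally. GFAP, the astrocyte intermediate filament, was at 6229, 2630, 4262 and 3387 in deprived layers against 2459, 2490, 2078 and 2974 (0.66 ± 0.21, limma adjusted p = 0.641). The high values were those of layers 3 and 5. The summed level of the astrocyte genes was 198341 to 239004 against 185151 to 247300. Of 10 microglial genes 9 were positive (median 0.23), 8 under median centring. Their median difference was 0.79, -0.52, 0.63 and 0.25 in layers 3 to 6. Within a hemisphere it was 0.49 ipsilaterally and -0.01 contralaterally. This gap between the sides cannot be told apart from a difference between layers 3 and 5 and the other parvocellular layers. CX3CR1, the fractalkine receptor of microglia, was at 9146, 4584, 9968 and 5432 against 4796, 4905, 3410 and 4414, again high in layers 3 and 5 (0.67 ± 0.21, adjusted p = 0.639). The summed level of the microglial genes was 13153 to 24866 against 13132 to 16896. Endothelial and mural genes had a median of 0.13, which turned to -0.01 under median centring, with 0 of 16 past an unadjusted p of 0.05 in either direction.

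Interneuron and koniocellular markers lay mostly on the higher side, with differences that varied between layers. Of 7 measured interneuron genes 5 were positive (median 0.30, 0.17 under median centring), and the median kept its sign in all 22 alternatives. At an unadjusted p under 0.05, 1 (14.3%) was higher and 1 (14.3%) lower, against 4.38% and 2.98% of all genes. The median difference of the interneuron genes was 0.82, -0.18, 0.56 and -0.19 in layers 3 to 6. RELN, a secreted matrix protein of interneurons, was at 11730, 9585, 8366 and 8628 in deprived layers against 6634, 4100, 7362 and 5520, without overlap (0.72 ± 0.21, limma adjusted p = 0.588). PVALB, a calcium-binding protein placed on the interneuron list, had a change of -0.52 ± 0.21 (adjusted p = 0.678). Whether its signal came from interneurons was not tested. GAD1, which makes GABA, had a change of 0.30 ± 0.23 (adjusted p = 0.837). Of the 6 koniocellular markers measured 5 were positive (median 0.34, 0.20 under median centring). Among them were CAMK2A (0.77 ± 0.31) and CALB1 (0.27 ± 0.32 in its brightest probe set and 0.23 ± 0.27 in another). At an unadjusted p under 0.05, 2 (33.3%) were higher and 0 lower, against 4.38% and 2.98% of all genes. Under median centring 1 (16.7%) was higher and 1 (16.7%) lower, against 1.35% and 5.05%. The median difference of the koniocellular markers was 0.54, -0.20, 0.64 and -0.04 in layers 3 to 6.

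**Figure D4:**
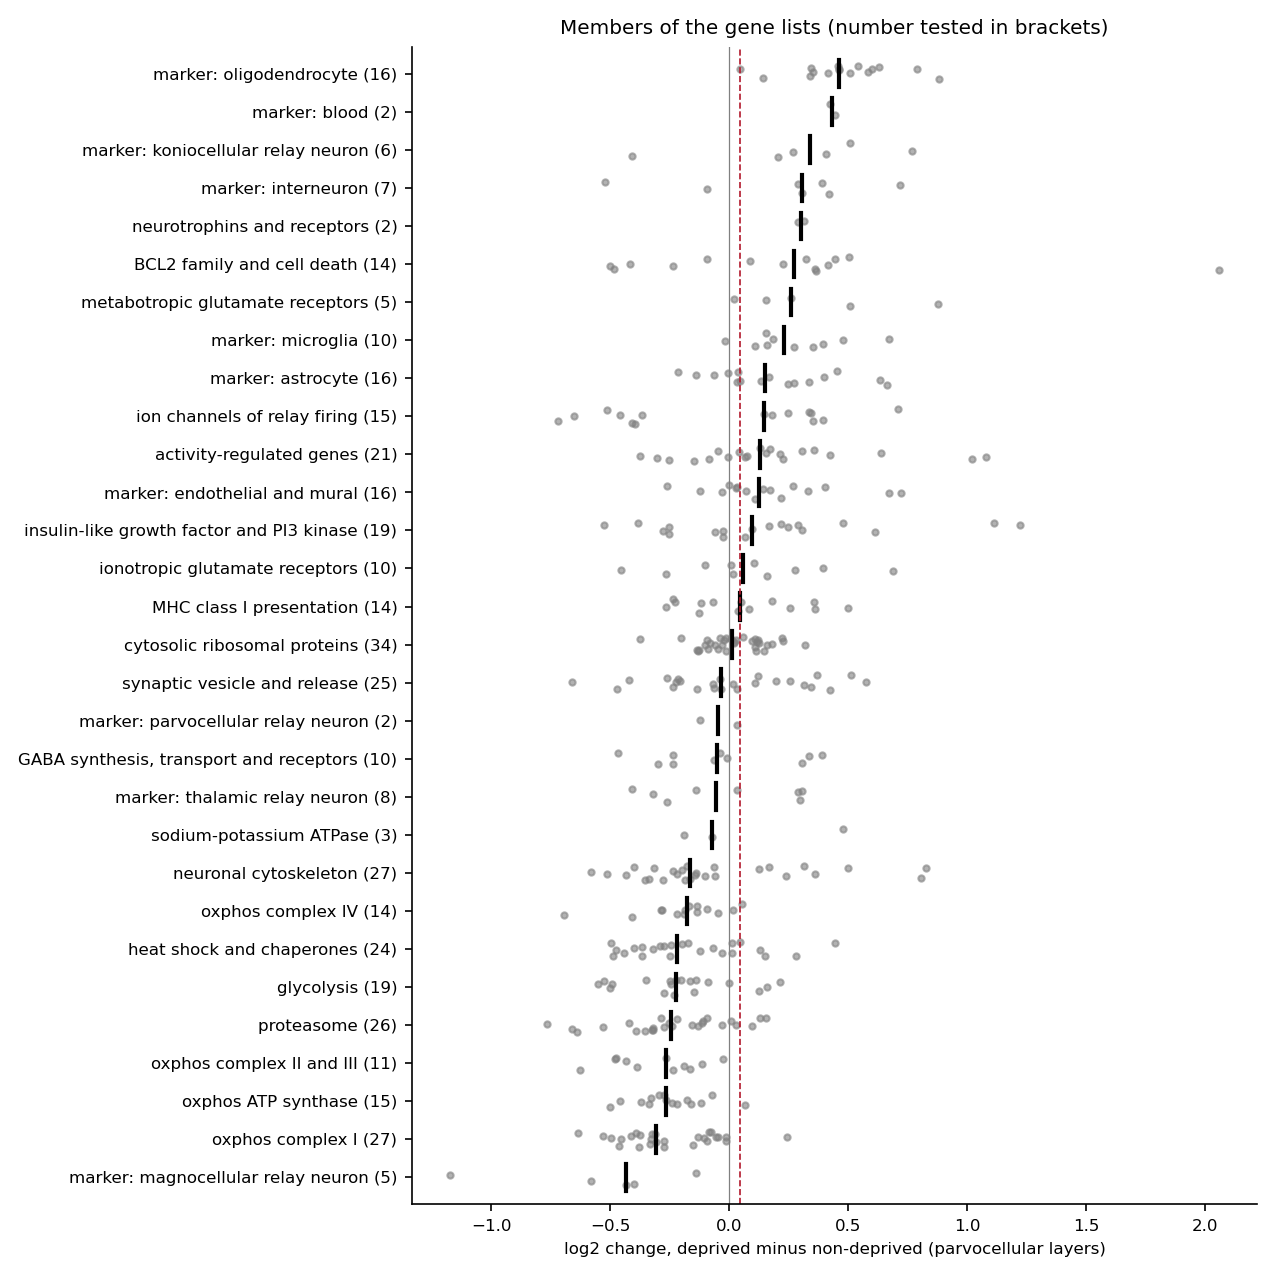
Log2 change (deprived minus non-deprived, parvocellular layers) of each measured member of the gene lists (grey points), with the list median (black bar), ordered by median, and the median of all genes, 0.0445, as a dashed line. Magnocellular markers (-0.43) and complex I (-0.31) have the lowest medians and oligodendrocyte markers (0.46) the highest.

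The deprivation change of parvocellular layers was then compared with that of the magnocellular layers, where each group had 2 arrays. The interaction of deprivation with cell class passed for 0 of 11105 probe sets by limma (smallest adjusted p = 0.259), and 8.73% had an unadjusted p under 0.05. HRK had a magnocellular change of 1.57 ± 0.43 and BRINP3 of 1.01 ± 0.37, and their differences from the parvocellular change were 0.49 ± 0.52 and 0.57 ± 0.46 (adjusted p = 0.811 and 0.738). PTGDS and MARCKSL1 had magnocellular values on the other side of 0, -0.74 ± 0.32 and -0.20 ± 0.26. Their differences between the classes were 2.11 ± 0.39 (adjusted p = 0.259) and 1.51 ± 0.32 (adjusted p = 0.307). PIK3R1 had the larger change in magnocellular layers, 2.49 ± 0.35, with a difference of -1.27 ± 0.43 (adjusted p = 0.431). STAR had a magnocellular change of -0.11 ± 0.32, with a difference of -1.08 ± 0.39 (adjusted p = 0.438), and NQO2 one of -1.60 ± 0.32, with a difference of 0.64 ± 0.39 (adjusted p = 0.662).

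A single magnocellular array decided this count. Without the deprived magnocellular layer 1, which left 1 deprived magnocellular array, assumed to vary like the other groups, 208 probe sets passed the interaction, 196 with the higher value in parvocellular layers. PTGDS (difference between the classes 2.76), MARCKSL1 (1.67) and STMN1 (2.90) were among them. HRK (0.71) and BRINP3 (0.26) were not. The genes of smallest interaction p beside PTGDS over all 12 arrays were SPTBN4, a spectrin of axon initial segments, GLRX3, a glutaredoxin, MARK4, a microtubule-regulating kinase, and CPNE6, a calcium-binding copine. Their parvocellular changes were 0.51 ± 0.26, 0.83 ± 0.31, 0.72 ± 0.26 and 0.07 ± 0.26, and their magnocellular changes lay between -2.37 and -1.73. The differences between the classes were 2.52 ± 0.46, 2.83 ± 0.55, 2.45 ± 0.49 and 2.44 ± 0.48 (limma adjusted p = 0.259 for each). In their other probe sets the difference between the classes was 1.68 ± 0.50 for MARK4, 1.89 ± 0.49 for CPNE6 and -0.04 ± 0.31 for GLRX3 (adjusted p = 0.419, 0.408 and 0.980). The parvocellular changes of these probe sets were 0.24, -0.12 and -0.39.

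**Figure D5:**
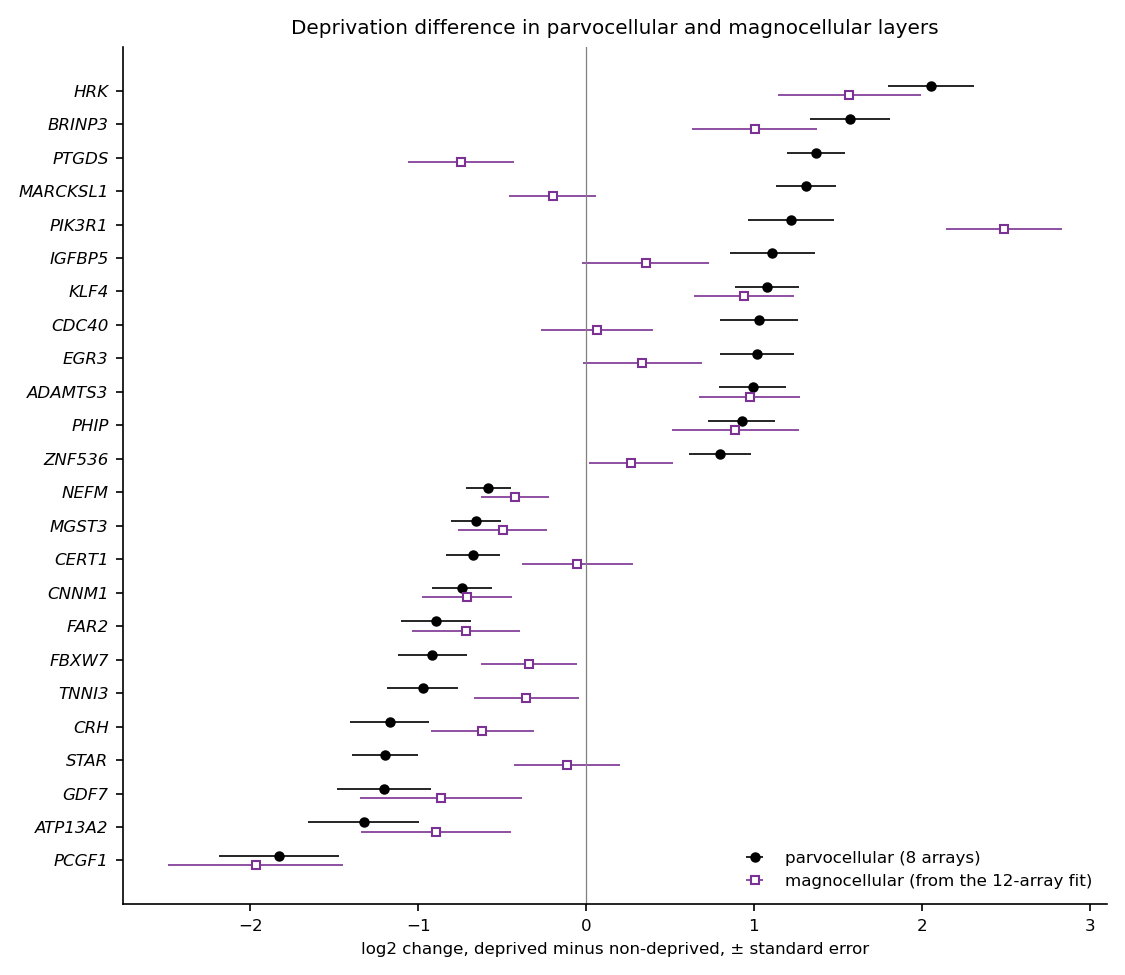
Log2 deprivation change with its standard error in parvocellular layers (8 arrays) and in magnocellular layers (from the fit over 12 arrays, 4 of them magnocellular) for 24 genes named on the higher and lower side. HRK, BRINP3, KLF4 and ADAMTS3 lie on the same side in both classes, while PTGDS and MARCKSL1 are above 0 in parvocellular and below 0 in magnocellular layers; the interaction passed for none of them over all 12 arrays.

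The change was also compared between the hemispheres within the parvocellular layers. This contrast is the same as that of layers 3 and 5 against layers 4 and 6 over both conditions, and these cannot be told apart. It passed for 0 of 11105 probe sets by limma (smallest adjusted p = 0.0713), while 8.05% had an unadjusted p under 0.05. Without the non-deprived layer 4, 19 passed, and without the deprived layer 3, 3. HRK, BRINP3, PTGDS and MARCKSL1 had similar changes on both sides, with differences between ipsilateral and contralateral change of 0.10, -0.39, -0.12 and -0.02 (adjusted p from 0.885 to 0.996).

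The 5 genes of smallest p in that contrast followed the layers in different ways. GGH, a lysosomal hydrolase of folates, was at 1746 and 1415 in deprived and 1124 and 1162 in non-deprived layers 3 and 5. It was at 5631 and 3259 in deprived and 2844 and 3578 in non-deprived layers 4 and 6, so it was low in layers 3 and 5 whether deprived or not (contrast -2.93 ± 0.43, limma adjusted p = 0.0713). NIPSNAP2, a mitochondrial matrix protein, had the same form, with 2628 and 1864 in deprived and 2629 and 2555 in non-deprived layers 3 and 5, and 4256 to 7530 in layers 4 and 6 (-2.57 ± 0.44, adjusted p = 0.143). LGI2, a secreted neuronal protein, was low in deprived layers 3 and 5 alone, at 150.8 and 256.4 against 1317 to 2195 on the other arrays (-3.42 ± 0.49, adjusted p = 0.0713). DKK3, a secreted protein of the Dickkopf family, was low in the same samples, at 451.5 and 449.2, high in deprived layers 4 and 6, at 3055 and 5469, and between 1066 and 1592 in all non-deprived layers (-2.73 ± 0.44, adjusted p = 0.0987). ATXN1, a nuclear protein, was at 1543 and 1257 in deprived layers 3 and 5, at 4998 and 5954 in deprived layers 4 and 6, and from 2237 to 3648 in non-deprived layers (-2.53 ± 0.37, adjusted p = 0.0713). Of the other probe sets of DKK3, 1 had a contrast of -2.34 ± 0.42 (adjusted p = 0.143) and the other of 0.37 ± 0.36 (adjusted p = 0.838), and that of ATXN1 had a contrast of -0.02 ± 0.35 (adjusted p = 0.994).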

How the data were processed

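The authors deposited 1 table of scaled linear intensity per probe set and array for 22283 probe sets. The software is not given in the sources used here. Trimmed means of the 12 arrays differed by 0.01%, so values were used as deposited. A floor was set at 110.8, the 20th percentile over all arrays, before log2 was taken. Probe sets other than 68 controls with a mean log2 value over 12 arrays at or above the median were tested (11105), by limma 3.58.1 in R 4.3.3 (lmFit, eBayes with trend), with deprivation and hemisphere as terms on the 8 parvocellular arrays (5 residual degrees of freedom). The interactions with cell class (12 arrays) and hemisphere (8 arrays) were fitted likewise. The fit was tested on simulated data. Gene symbols came from the platform annotation; 19065 probe sets named 1 gene, 1043 several and 2107 none here, and genes were named only from the first. Of 11963 symbols 94.2% were in the macaque gene tables. Human probes can bind macaque RNA less well, so levels were not compared between genes. The summed level of a list weighs its members by the brightness of their probe sets. No sequences or genome coordinates were used.

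Named genes were, in each direction, up to 12 past adjusted p under 0.05 by size, filled by smallest p among genes of 1 sign in all 4 layers, then the member of smallest p per list and direction, the 5 genes of smallest p per interaction, and 16 fixed genes. Other genes are named from the list counts, chosen after their values were seen. Lists kept the brightest probe set per gene. The members and lists were chosen with earlier results of these data known. Alternatives changed the scaling, floor, filter, trend, covariates and arrays.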

Additional observations from a re-analysis of the deposited data

Results flagged for a closer look

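In 8 of 188 groups of 4 arrays examined, 1 array lay far from the other 3 by Dixon's criterion, which chance meets in about 1 in 20 groups. Among deprived arrays, NDUFB6, a complex I subunit, was at 2996.9 in layer 4 against 2054 to 2180 on the others. ENO1 was at 11789.3 in deprived layer 5 against 19388 to 20850. GLRX3 was at 563.4 in deprived layer 4 against 780 to 818.5, and CPNE6 at 2670.7 in deprived layer 3 against 1420 to 1494. Among non-deprived arrays, CREM was at 1087 in layer 6 against 1394 to 1459. CANX, an endoplasmic reticulum chaperone, was at 33652 in non-deprived layer 5 against 37191 to 37807. COX7C was at 4813.3 in non-deprived layer 4 against 11029 to 11311. The mean correlation with the other parvocellular arrays was 0.90783 for the non-deprived layer 4 against 0.935 to 0.938 for the other non-deprived arrays.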

How the results depend on the processing

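The count of 4 probe sets past the threshold was 3 with quantile normalization, 4 with a floor at the 5th and 6 at the 40th percentile, 4 with the dorsal or ventral pair as a term, 5 with the filter over 8 arrays and 4 with a stricter filter on level. It was 1 with median centring (HRK), 1 without a filter (KCNV1, named after its values were seen), 0 without a trend, 2 with the GAPDH ratio as a covariate, 1 without the hemisphere term, 2 from the fit over all 12 arrays, 0 to 3 with 1 array left out, and 2 without the 2 arrays of lowest correlation, a choice made after seeing the data. Of 22 alternatives HRK passed in 16, PTGDS in 12 and MARCKSL1 in 9, BRINP3 in 6 of 21, and none of the 4 changed sign. The cause of these changes was not tested.

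The class interaction gave 0 except for 5 without a filter and 0 to 208 with 1 array left out. The hemisphere interaction gave 0 except for 9 without a filter and 0 to 19 with 1 array left out. With the layer number as a replicate block, 5 probe sets passed in the parvocellular comparison (4 higher, and LGI2 lower) and 0 in the class interaction. Deviations of same-numbered samples from their group means had correlations of -0.06, -0.30, -0.14 and 0.07 for layers 3 to 6, with hemisphere not removed. The deviations left after the fit with hemisphere had correlations of 0.20, 0.13, 0.34 and 0.11. Without pairing 0.2 is expected there, so layer 5 lay above it. Whether equal layers came from 1 animal is not stated in the labels. The block could not be fitted with the hemisphere interaction.

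Signs turned for 12 named genes, none past the threshold. Under median centring COX6C was -0.083, ATP5PF -0.072, TCF7L2 -0.11, CPNE6 -0.068 and DKK3 -0.081, and DKK3 -0.075 after quantile normalization. TCF7L2 was -0.00125 with the GAPDH ratio. Without the 2 arrays of lowest correlation TCF7L2 was -0.077, ATP1B3 0.025, KCNA4 0.15, CD74 0.14, ATXN1 0.36 and NIPSNAP2 0.30. With 1 array left out, the changes ran from -0.38 to 0.36 for DKK3, -0.14 to 0.27 for COX6C, -0.041 to 0.20 for ATP5PF, -0.069 to 0.10 for TCF7L2, -0.19 to 0.16 for CPNE6, -0.42 to 0.20 for ATXN1, -0.33 to 0.044 for KCNA4, -0.32 to 0.14 for CD74, -0.58 to 0.20 for NIPSNAP2, -0.0080 to 0.80 for GGH and -0.51 to 0.35 for PDGFRB.

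The list medians of the respiratory chain (-0.40 to -0.20), glycolysis, proteasome, chaperones, magnocellular markers (-0.57 to -0.38) and oligodendrocytes (0.32 to 0.55) kept their sign in all 22 alternatives.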

Other observations

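Receptor and channel genes of relay neurons gave the following values, none past the adjusted threshold. Of 10 ionotropic glutamate receptor subunits 7 were positive (median 0.06, -0.08 under median centring). GRIA1, an AMPA receptor subunit, was at 1169, 955.2, 998.7 and 966.7 in deprived layers 3 to 6 against 673.6, 611.4, 916.2 and 424.7, without overlap (log2 change 0.69 ± 0.26, limma adjusted p = 0.677). The 5 measured metabotropic glutamate receptors were all positive as deposited (median 0.26), and 4 of 5 under median centring (median 0.12 against -0.0942 over all genes), and 2 of 5 (40%) were higher at an unadjusted p under 0.05. The median kept its sign in all 22 alternatives. GRM7, a presynaptic receptor, had a change of 0.88 ± 0.28 (adjusted p = 0.641) and 0.01 in its other probe set. GRM3 went from 3983 ± 206.2 to 5808 ± 1561 (0.51 ± 0.19). Of 10 GABA synthesis, transport and receptor genes 7 were negative (median -0.05), with 0 past an unadjusted p of 0.05 in either direction.

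Of 15 ion channel genes SCN3B, a sodium channel beta subunit, was at 909.3, 898, 1122 and 835.8 against 503.5, 659.6, 596.3 and 540.9, without overlap (0.71 ± 0.24, limma adjusted p = 0.641). KCNH2, a potassium channel, had a change of -0.72 ± 0.32 in its brightest probe set and of 1.09 in another. Cytosolic ribosomal proteins had a median of 0.01 over 34 genes, which was -0.13 under median centring. Of 14 genes of MHC class I presentation PSMB9, an immunoproteasome subunit, was higher at an unadjusted p under 0.05 (0.50 ± 0.22). Of 8 markers of thalamic relay neurons 4 were positive and 4 negative (median -0.05), with 0 past an unadjusted p of 0.05 in either direction.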
